A study of Homo sapiens with 12 samples.

Results

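The genes described here are 8 early response genes, which are IER2, IER3, IER5 and IER5L of the immediate early response (IER) family together with NR4A1, RHOB, TRIB1 and PHLDA1. They were chosen by symbol, and all 8 were found among the 54628 genes of the deposited count table. RNA-seq had been done on HUDEP-2, an immortalized human erythroid precursor line expanded with SCF (stem cell factor, the ligand of the Kit receptor), erythropoietin, dexamethasone and doxycycline. All 12 libraries came from cells starved for 5 h and then given PBS or 50 ng/mL SCF for 1 h, and from cells that carried dCas9-KRAB, a repressor guided to a chosen DNA site, with either a scrambled guide (sgControl) or a guide to an element upstream of EGR1 (sgEGR1). The guides were delivered by lentivirus and infected cells were sorted by GFP as pools. The 4 groups (sgControl PBS, sgControl SCF, sgEGR1 PBS and sgEGR1 SCF) held 3 replicates each. The comparison between PBS and SCF asks how the genes responded to acute Kit signaling. The comparison between guides asks whether that response differed in cells with the guide meant to impair EGR1 induction.

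Early response genes are transcribed within minutes of a growth factor signal without need for new protein synthesis, and their transcripts are mostly short-lived. Kit is a receptor tyrosine kinase that activates the Ras-MAPK pathway, which acts through ETS factors and serum response factor at many such genes, and Kit signaling sustains proliferation of erythroid precursors. IER2 and IER5 encode nuclear proteins, IER3 encodes a regulator of apoptosis and ERK signaling, NR4A1 encodes an orphan nuclear receptor, RHOB encodes an endosomal small GTPase, TRIB1 encodes a pseudokinase adaptor of a ubiquitin ligase, and PHLDA1 encodes a pleckstrin homology-like domain protein.

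The stretches just upstream of the annotated starts are shown for IER2, RHOB and NR4A1, whose transcripts were higher after SCF in these data, and for IER5, a relative of IER2 whose transcript did not pass the test. The sequences are from RefSeq (GRCh38.p14), are given 5′ to 3′ on the plus strand and end at the base before the start. Of each window of 250 bases, the stretch within exons of the GENCODE v44 annotation was left out, which removed 223 bases for IER2. Windows matched 6 of the 8 genes, and IER3 and TRIB1 had no entry. Capitals mark matches on either strand to the motifs spelled out after the sequences (ETS, GC box, CCAAT box and TATA box).
IER2, chr19:13150384-13150410: CTTCCGGtgcacatgcccCCGCCCctt
RHOB, chr2:20446894-20447073: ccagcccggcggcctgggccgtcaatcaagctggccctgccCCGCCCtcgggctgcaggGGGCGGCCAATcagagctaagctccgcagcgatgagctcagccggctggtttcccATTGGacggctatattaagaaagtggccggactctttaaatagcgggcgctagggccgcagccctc
NR4A1, first start, chr12:52022582-52022831: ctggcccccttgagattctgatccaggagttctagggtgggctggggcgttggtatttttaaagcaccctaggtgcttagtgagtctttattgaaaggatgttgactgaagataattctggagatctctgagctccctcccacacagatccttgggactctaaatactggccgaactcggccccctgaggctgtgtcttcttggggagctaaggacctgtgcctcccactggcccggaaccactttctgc
NR4A1, later start, chr12:52037465-52037714: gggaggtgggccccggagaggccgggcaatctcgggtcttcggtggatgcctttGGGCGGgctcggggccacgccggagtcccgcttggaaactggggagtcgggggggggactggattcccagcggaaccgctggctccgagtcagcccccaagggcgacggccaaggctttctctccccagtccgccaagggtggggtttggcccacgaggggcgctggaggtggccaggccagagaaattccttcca
IER5, chr1:181088540-181088699: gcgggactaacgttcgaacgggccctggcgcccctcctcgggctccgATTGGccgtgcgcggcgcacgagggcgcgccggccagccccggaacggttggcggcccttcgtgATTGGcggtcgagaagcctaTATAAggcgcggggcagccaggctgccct

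In the full windows of 250 bases, searched on both strands, an ETS motif (CCGGAAG) was found only for IER2, 27 bases before its start, and 8.52% of the 35116 RefSeq windows held one. No window of the 6 genes held the EGR motif GCGTGGG, which 6.19% of all windows held. The same was true of the AP-1 motif TGANTCA (6.57%), of the CArG box bound by serum response factor (1.16%). The cAMP response element TGACGTCA, held by 1.65% of all windows, was not found either. RHOB, IER5 and IER5L each held 2 matches to the letters CCAAT, found in 32% of all windows. The GC box GGGCGG (42.6%) was held 3 times by IER2, of which 1 lies in the stretch shown, 2 times each by RHOB and IER5L, and 1 time each by PHLDA1 and the later start of NR4A1. A TATA box (TATAA, 18.9%) was found only for IER5, 29 bases before its start. These matches describe letters in the windows shown and not binding.

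Library totals ranged from 23498065 to 32039680 counts, and 7 of the 8 genes passed the filter on low counts along with 15492 genes in all. Levels are given as CPM, the count scaled to a common library size after TMM normalization. EGR1 itself, the gene whose induction the sgEGR1 guide was meant to impair, held 208, 239.5 and 171 CPM after SCF in sgControl replicates 1, 2 and 3, and 40.4, 57.4 and 203.6 CPM in the libraries labelled sgEGR1. The library labelled sgEGR1 SCF replicate 3, at 203.6 CPM, had EGR1 in the sgControl range, against its label. The SCF changes of the 7 genes in sgEGR1 are given with and without it. So are the averages over guides, the guide comparisons after SCF and the interactions of IER2, RHOB and NR4A1. Other results that draw on the sgEGR1 SCF group include it unless stated. Of the erythroid precursor markers, 10 of 11 were at or above 1 CPM in every library, with HBG1 (0 to 166 CPM) the exception, and their sum ranged from 20021 to 23218 CPM. Of 18 markers of megakaryocytes, myeloid, lymphoid and fibroblast or epithelial cells, ITGA2B, SPI1 and EPCAM were at that level, whereas PF4, MPO and CD3E were at 0. The 4 libraries numbered replicate 1 lay apart from the other 8 on the first principal component (-35.3 to -21.7 against 6.85 to 23.7, with 17.6% of the variance), so values are given by replicate number. This split was known from earlier results of these data, so fits that use it are not independent of them.

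Per kilobase of annotated exon, IER2 had the highest level of the 8 genes both after PBS (18.4 ± 2.19 CPM per kb, SD, n = 6) and after SCF (46.2 ± 4.76). After PBS it was followed by IER5 (10.6 ± 1.11) and RHOB (9.58 ± 3.32), which overlapped each other, and then by IER5L (0.897 ± 0.291) and TRIB1 (0.516 ± 0.143), which also overlapped. NR4A1 (0.189 ± 0.0838) and PHLDA1 (0.0664 ± 0.0205) came next without overlap, and IER3 was listed at 0. Neither overlap was present in replicates 2 and 3 alone, where RHOB lay at 6.80 to 8.32 and IER5 at 8.76 to 11.8 CPM per kb, and TRIB1 lay at 0.346 to 0.483 and IER5L at 0.605 to 1.02. After SCF the order changed at 2 places. RHOB (25.2 ± 3.44 CPM per kb) lay above IER5 (9.37 ± 0.773) with no overlap, and NR4A1 (0.602 ± 0.189) could no longer be separated from TRIB1 (0.646 ± 0.174) and IER5L (0.645 ± 0.178). The exon lengths join all annotated isoforms, so a gene with long unused exons is understated, and less RNA per cell cannot be told apart from fewer expressing cells.

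**Figure D1:**
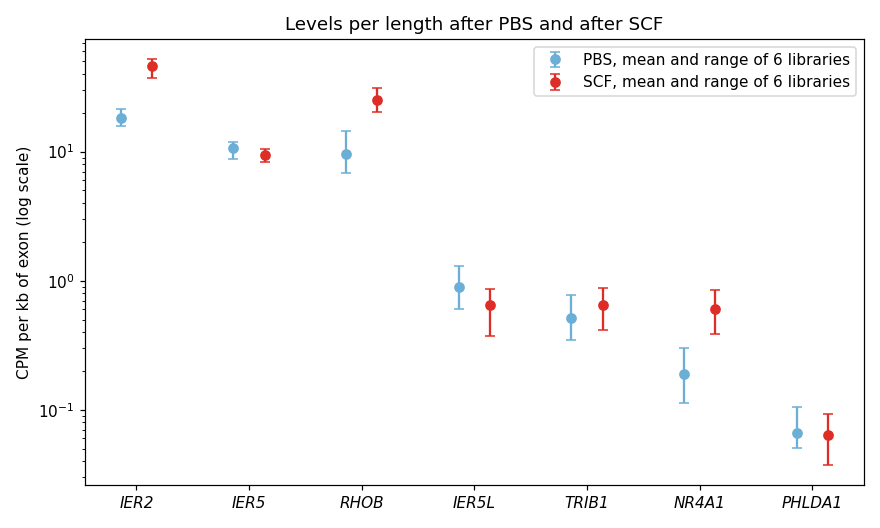
Level of 7 genes in CPM per kilobase of annotated exon (log scale) after PBS and after SCF, with points at the mean and bars over the range of 6 libraries of both guides. IER2, RHOB and NR4A1 have SCF ranges above their PBS ranges (46.2 against 18.4, 25.2 against 9.58 and 0.602 against 0.189 CPM per kb), and the ranges of the other 4 overlap; IER3, listed at 0, is not drawn.

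IER2 (chr19:13150411-13154911, plus strand) rose with SCF in both guides. In sgControl cells it was at 62.2, 57.5 and 55.1 CPM in replicates 1, 2 and 3 after PBS (58.3 ± 3.64, SD, n = 3) and at 144, 145 and 115 CPM after SCF (135 ± 16.7). In sgEGR1 cells it was at 65.9, 49.7 and 49.0 CPM after PBS (54.9 ± 9.55) and at 147, 160.3 and 143 CPM after SCF (150.0 ± 9.13). The lowest SCF library (115 CPM) thus lay well above the highest PBS library (65.9 CPM), and replicate 1 was the highest of the 3 in both PBS groups but in neither SCF group. The log2 fold change was 1.21 (SE 0.116, 95% interval 0.96 to 1.46, adjusted p 0.000196, edgeR) in sgControl and 1.45 (SE 0.116, 1.20 to 1.71, adjusted p 5.49e-05) in sgEGR1. IER2 was called in both guides under every one of the 20 alternatives fitted, and its change in sgEGR1 was 1.49 when replicate 3 of sgEGR1 SCF, whose EGR1 goes against its label, was left out.

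RHOB (chr2:20447074-20449440, plus strand) also rose in both guides, from a baseline that differed between replicates. After PBS it was at 30.9, 19.7 and 18.1 CPM in sgControl replicates 1, 2 and 3 (22.9 ± 6.94) and at 34.4, 16.1 and 17.0 CPM in sgEGR1 (22.5 ± 10.3). After SCF it was at 62.5, 58.2 and 48.2 CPM in sgControl (56.3 ± 7.34) and at 73.1, 57.0 and 58.7 CPM in sgEGR1 (63.0 ± 8.84). No SCF library fell to the PBS range, and replicate 1 was the highest library of every group. The log2 fold change was 1.30 (SE 0.269, 0.71 to 1.88, adjusted p 0.0241, edgeR) in sgControl and 1.49 (SE 0.270, 0.90 to 2.08, adjusted p 0.0123) in sgEGR1. With a batch term for replicate 1, which takes the offset of those libraries out of the spread, the adjusted p was 6.82e-05 and 2.27e-05 with changes of 1.33 and 1.54. Without that term the call in sgControl was lost on leaving out 1 of 4 libraries, which were PBS replicate 2 (adjusted p 0.107), PBS replicate 3 (0.113), SCF replicate 1 (0.0761) and SCF replicate 2 (0.0738) of sgControl, and the call in sgEGR1 was lost without sgEGR1 PBS replicate 2 or 3 (0.0617 and 0.0674), while it held without the library labelled sgEGR1 SCF replicate 3 (1.54, adjusted p 0.0340).

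NR4A1 (chr12:52022832-52059507, plus strand) had the largest fold difference of the 8 genes, at a level of a few CPM. After PBS it was at 2.20, 0.827 and 1.24 CPM in sgControl replicates 1, 2 and 3 (1.42 ± 0.706) and at 2.09, 0.932 and 0.977 CPM in sgEGR1 (1.33 ± 0.654), which correspond to 21 to 61 counts. After SCF it was at 5.82, 3.47 and 2.80 CPM in sgControl (4.03 ± 1.59) and at 6.18, 4.61 and 3.5 CPM in sgEGR1 (4.76 ± 1.35), or 89 to 186 counts. Every SCF library lay above every PBS library, although PBS replicate 1 (2.20 CPM) came close to SCF replicate 3 (2.80 CPM) in sgControl. The log2 fold change was 1.49 (SE 0.412, 0.59 to 2.39) in sgControl, which did not pass the test (adjusted p 0.0836, edgeR), and 1.85 (SE 0.417, 0.94 to 2.76) in sgEGR1, which did (adjusted p 0.0370). With the batch term both passed, at 1.51 (SE 0.192, adjusted p 0.000316) and 1.89 (SE 0.193, adjusted p 5.35e-05), and in replicates 2 and 3 alone the sgControl change was 1.59 (adjusted p 0.00956). DESeq2 (adjusted p 0.0123) and the replicate block (0.000630) also called the sgControl change, as did leaving out sgControl PBS replicate 1 (1.96, adjusted p 0.0457). It was called in only 6 of the 20 alternatives fitted. In 11 of the 12 fits that left out 1 library it did not pass (adjusted p up to 0.261, edgeR). In sgEGR1 the call was lost in 7 of the 12 fits that left out 1 library (adjusted p 0.0552 to 0.156), among them the one omitting the library labelled sgEGR1 SCF replicate 3 (2.03, adjusted p 0.0552). The other 6 libraries were sgControl PBS replicate 3, sgControl SCF replicate 2, sgEGR1 PBS replicates 2 and 3 and sgEGR1 SCF replicates 1 and 2.

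**Figure D2:**
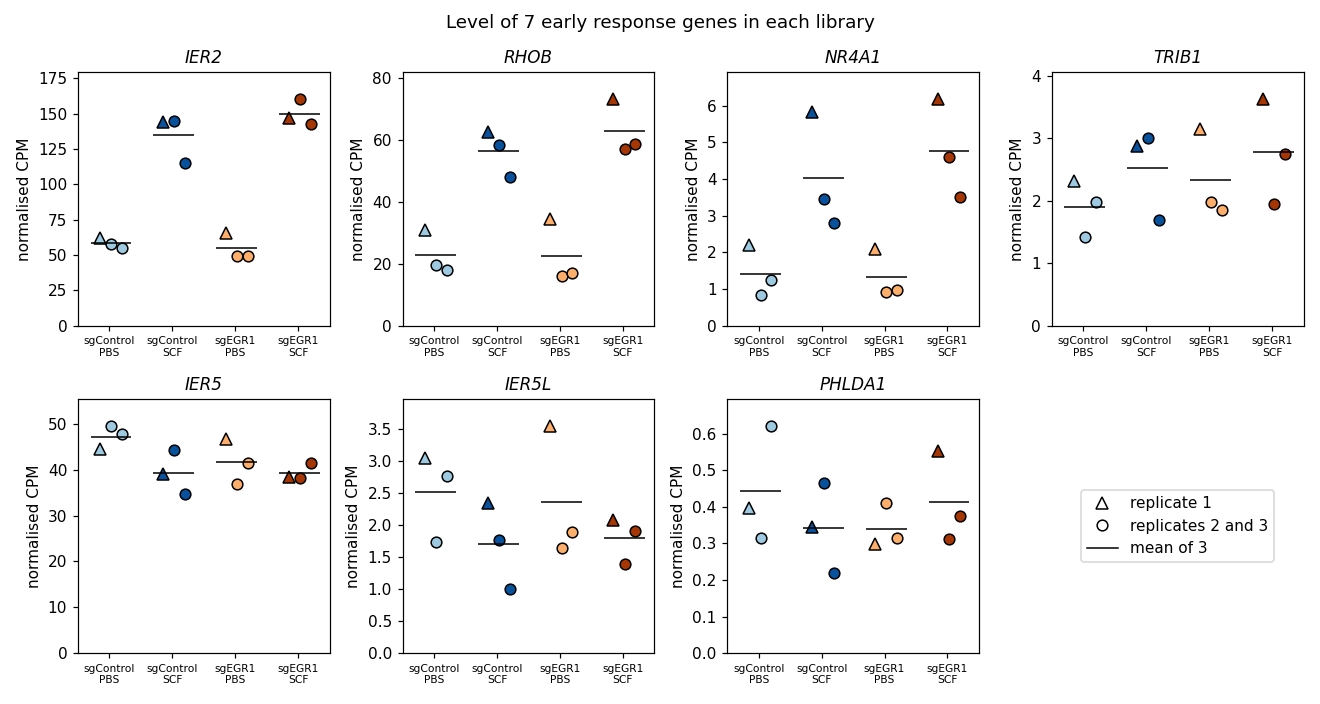
Level of 7 genes in normalised CPM in each of the 12 libraries by group, with triangles for replicate 1, circles for replicates 2 and 3 and lines at the mean of 3. For IER2, RHOB and NR4A1 every SCF library lies above every PBS library (lowest SCF 115, 48.2 and 2.80 CPM against highest PBS 65.9, 34.4 and 2.20 CPM), and the other 4 genes overlap.

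Averaged over both guides, the log2 change with SCF was 1.33 for IER2 (SE 0.0819, adjusted p 2.12e-06, edgeR), 1.39 for RHOB (SE 0.191, adjusted p 0.000829) and 1.67 for NR4A1 (SE 0.293, adjusted p 0.00395). These are rises of 2.51, 2.63 and 3.18 times, and all of the 19 alternatives fitted called all 3. When the library labelled sgEGR1 SCF replicate 3 was left out, the averages were 1.35, 1.42 and 1.76. An exact two-sided permutation of the log2 CPM of each of the 7 genes, with labels permuted within guides, gave 0.005 for each of these 3, the smallest p its 400 arrangements allow, and 0.07 for IER5, 0.135 for IER5L, 0.195 for TRIB1 and 0.845 for PHLDA1. Permutation within a single guide cannot go below 0.1 with 3 libraries against 3.

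IER5 (chr1:181088700-181092900, plus strand), the relative of IER2, did not pass the test in either guide, and its values leaned the other way. In sgControl cells it was at 44.5, 49.5 and 47.8 CPM after PBS (47.2 ± 2.54) and at 39.2, 44.3 and 34.7 CPM after SCF (39.4 ± 4.8), so that its 2 ranges just failed to meet. In sgEGR1 cells it was at 46.7, 36.8 and 41.4 CPM after PBS (41.7 ± 4.95) and at 38.4, 38.3 and 41.5 CPM after SCF (39.4 ± 1.83), with overlap. The log2 fold change was -0.26 (95% interval -0.48 to -0.05, unadjusted p 0.0190, adjusted p 0.216, edgeR) and -0.08 (-0.29 to 0.13), and over both guides it was -0.17 (-0.32 to -0.02, adjusted p 0.156). The sgEGR1 change of IER5 was -0.12 without replicate 3 of the SCF group, and neither this nor the changes of the next 3 genes passed the test then. With 988 to 1329 counts per library, a rise of the size seen for IER2 lay outside these intervals.

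IER5L (chr9:129175552-129178261, minus strand), an IER5-like gene, was at 3.03, 1.73 and 2.75 CPM after PBS and at 2.35, 1.77 and 1.01 CPM after SCF in sgControl. In sgEGR1 it was at 3.53, 1.64 and 1.88 CPM after PBS and at 2.07, 1.39 and 1.90 CPM after SCF. The PBS and SCF ranges overlapped in both guides, and the changes of -0.56 (95% interval -1.33 to 0.22) and -0.39 (-1.17 to 0.39) did not pass edgeR's test (adjusted p 0.554 and 0.699). In sgEGR1 the change of IER5L was -0.43 without replicate 3 of the SCF group.

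TRIB1 (chr8:125430358-125438403, plus strand) was at 2.31, 1.42 and 1.98 CPM after PBS and at 2.88, 3.0 and 1.70 CPM after SCF in sgControl. In sgEGR1 it was at 3.15, 1.97 and 1.85 CPM after PBS and at 3.62, 1.94 and 2.75 CPM after SCF. The groups overlapped, and the changes of 0.40 (-0.27 to 1.08) and 0.26 (-0.41 to 0.92) did not pass (adjusted p 0.649 and 0.782, edgeR), and the latter was 0.27 without replicate 3 of sgEGR1 SCF. The intervals leave room for a rise of up to 1.08 on the log2 scale, so a moderate response was not resolvable at 36 to 105 counts per library.

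PHLDA1 (chr12:76025447-76031776, minus strand) was near the lower limit of measurement, with 7 to 16 counts per library (0.220 to 0.621 CPM). Summed over the 3 libraries of a group it held 35 counts (exact 95% Poisson interval 24.4 to 48.7) in sgControl PBS, 32 (21.9 to 45.2) in sgControl SCF, 27 (17.8 to 39.3) in sgEGR1 PBS and 37 (26.1 to 51.0) in sgEGR1 SCF. These intervals cover counting error only and overlap throughout. The log2 changes were -0.37 (-1.29 to 0.55) and 0.27 (-0.66 to 1.20, and 0.34 without replicate 3 of sgEGR1 SCF), and neither passed edgeR's test. These intervals do not give the smallest change that could have been called at this depth.

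IER3 (chr6:30743199-30744548, minus strand) was listed at 0 in all 12 libraries, and no fold is given. Its neighbourhood was also sparse. Of 75 other protein-coding genes within 1 Mb, 38 were listed at 0 in every library (50.7%), against 25.6% of the 19275 protein-coding genes of the table. Genes of this region that most cells use were among the low ones, with 0 to 8 counts for CSNK2B, which encodes the regulatory subunit of casein kinase 2, and 0 to 9 for ABCF1, a translation factor. TUBB, a tubulin gene, held 69 to 122 counts. The zeros of IER3 are therefore reported as listed and not as absence of its transcript.

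Counted over the list, 2 of the 7 genes tested were called higher with SCF in sgControl (IER2 and RHOB), where 2.12% of all genes tested were called higher, and 3 of 7 in sgEGR1 (with NR4A1), where 1.81% were. Without the library labelled sgEGR1 SCF replicate 3, NR4A1 was not called in sgEGR1 (adjusted p 0.0552, edgeR). Averaged over guides the count was 3 of 7 against 5.58%. With the batch term for replicate 1 it was 3 of 7 in each, against 5.28% in sgControl, 5.04% in sgEGR1 and 10.2% averaged over guides. None was called lower in any of these fits. All 6 SCF libraries lay above all 6 PBS libraries for 3 of the 7 genes and for 4.43% of all genes tested. The median log2 change averaged over guides was 0.33 for the 7 genes and -0.0045 for all genes.

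**Figure D3:**
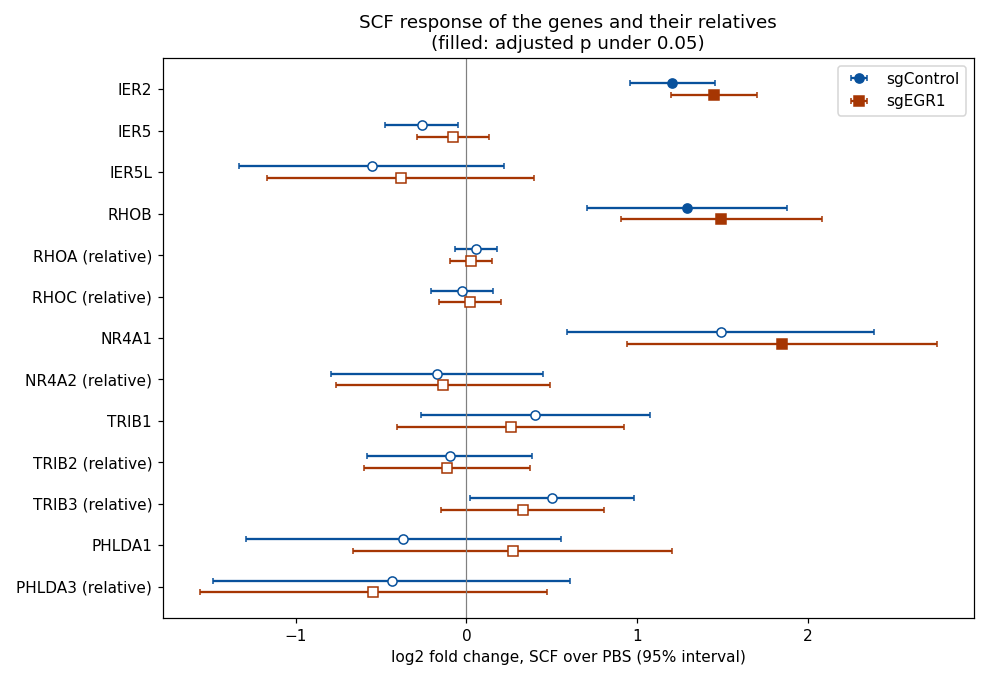
Log2 fold change of SCF over PBS with its 95% interval (edgeR) for the 7 genes and 6 relatives, by guide, filled where the adjusted p was under 0.05. IER2, RHOB and NR4A1 lie between 1.21 and 1.85, of which NR4A1 in sgControl is open, and the intervals of RHOA, RHOC and NR4A2 include 0 in both guides.

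RHOA, RHOC and NR4A2, relatives of RHOB and NR4A1, did not pass the test with SCF. RHOA, a widely expressed small GTPase of cytoskeletal control, held 332 to 388 CPM, and its log2 changes were 0.05 (95% interval -0.07 to 0.18) in sgControl and 0.02 (-0.10 to 0.15) in sgEGR1. RHOC, at 18.2 to 24.1 CPM, changed by -0.03 (-0.21 to 0.16) and 0.02 (-0.16 to 0.20). NR4A2, the closest relative of NR4A1, was at 4.24 to 8.24 CPM and thus no less abundant than NR4A1, with changes of -0.17 (-0.79 to 0.45) and -0.14 (-0.76 to 0.49). TRIB2 was at 16.6 to 31.2 CPM with changes of -0.10 (-0.58 to 0.39) and -0.12 (-0.60 to 0.37). TRIB3, a stress-inducible pseudokinase, was higher by 0.50 (adjusted p 0.323) and 0.33 (adjusted p 0.542), and passed in sgControl with the batch term (0.50, adjusted p 0.0260) and with the replicate block (0.0354). PHLDA3, a p53 target, was near the limit (0.125 to 0.559 CPM) and did not pass, NR4A3 had at most 16 counts and was not tested, and PHLDA2 was listed at 0.

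The responses of 5 pairs, averaged over guides on the log2 scale, are set side by side as a description, since the pairs were chosen after their values had been seen. The SCF response of RHOB exceeded that of RHOA by 1.41 and that of RHOC by 1.45. The response of NR4A1 exceeded that of NR4A2 by 1.82, and that of IER2 exceeded that of IER5 by 1.5. For TRIB1 and TRIB2 the difference was 0.43. TRIB3 was not among the pairs. Its averaged change was 0.42 against 0.33 for TRIB1, and edgeR called neither.

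Other early response genes changed over a wide range. Of a list of 46 such genes, 42 were tested, and 18 were called higher in sgControl, 18 in sgEGR1 and 22 averaged over guides, with none lower (edgeR). The shares of all genes tested that were called higher were 2.12%, 1.81% and 5.58%. The list includes EGR1 and was drawn up with earlier results of these data known. The median averaged change of the 42 genes was 0.67. Its highest averaged log2 changes were those of EGR3, EGR1 and FOSB, at 7.06, 5.44 and 3.04. EGR3 had 0 counts in the 6 PBS libraries and 107 in the 6 SCF libraries, so its fitted change is no bound; against a limit of 3 counts over the PBS libraries it was at least 31.2-fold higher. The lowest were ARC (-0.51), GADD45B (-0.51) and RGS2 (-0.20), none of which passed, though GADD45B, a stress response gene, passed with the batch term. Ranked together with these 42 genes, NR4A1 was in place 12, RHOB in place 14 and IER2 in place 16 of 49, and TRIB1, PHLDA1, IER5 and IER5L were in places 31, 41, 44 and 47.

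Genes whose pattern over the 12 libraries was most like that of the 3 called genes were found among 12372 genes with a mean of at least 1 CPM. Likeness was the root mean square difference of centred log2 CPM. For IER2, which itself varied by 0.683 on this measure, these were SRF, encoding serum response factor (0.198), and PLEKHO2 (0.222). For RHOB (0.794) they were SKIL, encoding a repressor of SMAD signaling (0.209), and FJX1 (0.215), and for NR4A1 (0.959) they were SKIL (0.261) and CSRNP1, encoding a nuclear protein (0.279). SRF was at 57.0 to 64.3 CPM in the PBS libraries and at 113 to 144 CPM in the SCF libraries. SKIL was at 3.11 to 6.98 and at 10.5 to 20.4 CPM, and, as for RHOB and NR4A1, its replicate 1 was the highest library of each group.

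The guide to EGR1 was not followed by a detectable difference in any of the genes. After PBS, sgEGR1 and sgControl differed by -0.09 for IER2 (95% interval -0.34 to 0.16), -0.04 for RHOB (-0.64 to 0.56) and -0.12 for NR4A1 (-1.07 to 0.84) on the log2 scale. After SCF they differed by 0.16 (-0.09 to 0.40), 0.16 (-0.40 to 0.72) and 0.24 (-0.59 to 1.07). When the library labelled sgEGR1 SCF replicate 3 was left out, these were 0.19 (-0.09 to 0.47), 0.21 (-0.45 to 0.86) and 0.42 (-0.51 to 1.35). None of the 7 genes was called in either comparison or in the interaction of guide and SCF, where the share of all genes called by edgeR was likewise 0.0%. EGR1, the gene the guide targets, was not called by edgeR either. Its means after PBS were 8.10 CPM in sgControl and 1.38 CPM in sgEGR1. DESeq2 called 1 gene of the early response list, which includes EGR1, lower in sgEGR1 after PBS (adjusted p 0.0381). The lowest log2 change of that list there was -2.56. Of the 15492 genes tested, 715 after PBS, 361 after SCF and 306 in the interaction had an unadjusted p under 0.05 (edgeR). A threshold of 0.05 would pass more genes than these if no gene differed. That none of the 7 was among them is thus no result about the 7. DESeq2 called 20, 5 and 4 genes after adjustment. The intervals for NR4A1 reached -1.07 after PBS and 1.07 after SCF, while those of IER2 and IER5 were the narrowest and stayed within -0.39 to 0.40.

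The interaction, positive where the response was larger in sgEGR1, was 0.25 for IER2 (-0.11 to 0.60, unadjusted p 0.156, edgeR), 0.20 for RHOB (-0.62 to 1.02), 0.36 for NR4A1 (-0.91 to 1.63) and 0.18 for IER5 (-0.12 to 0.48). For TRIB1 it was -0.15, for IER5L 0.17 and for PHLDA1 0.64 (-0.67 to 1.95). When the library labelled sgEGR1 SCF replicate 3 was omitted, the interaction was 0.28 for IER2, 0.25 for RHOB and 0.54 for NR4A1, and none was called. Within the sgEGR1 SCF group, IER2 was at 147, 160.3 and 143 CPM in replicates 1, 2 and 3 while EGR1 was at 40.4, 57.4 and 203.6 CPM. IER2 was thus lowest in replicate 3, RHOB in replicate 3 (58.7 CPM) lay within the range of the other 2, and NR4A1 was lowest there (3.5 CPM). In sgControl SCF, replicate 3 was the lowest for IER2, RHOB and NR4A1 (115, 48.2 and 2.80 CPM). EGR1 was also lowest in that sgControl library (171 CPM). For IER2 the interaction had an unadjusted p of 0.0435 with the replicate block and 0.0121 in replicates 2 and 3 alone (0.41, adjusted p 0.796), and for RHOB it had an unadjusted p of 0.0357 in replicates 2 and 3 alone (0.31, adjusted p 0.796), all short of the threshold after adjustment.

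Replicate 1 differed from the other replicates in 4 of the 7 genes, apart from SCF and guide. The split was chosen because earlier results of these data had shown replicate 1 to stand apart, so its p-values are descriptive. With group held fixed, NR4A1 was higher in replicate 1 by 0.90 on the log2 scale (SE 0.137, adjusted p 0.000369, edgeR), IER5L by 0.64 (SE 0.182, adjusted p 0.0204), RHOB by 0.55 (SE 0.10, adjusted p 0.00127) and TRIB1 by 0.52 (SE 0.165, adjusted p 0.0326), where 13.1% of all genes tested were called higher. NR4A1, IER5L and RHOB were highest in replicate 1 in 4 of 4 groups and TRIB1 in 3 of 4. The ratio of replicate 1 to the mean of the other 2 was 1.52 to 2.19 over the groups for NR4A1, 1.26 to 2.01 for IER5L and 1.17 to 2.08 for RHOB. IER2 (0.16, adjusted p 0.112), IER5 (0.01, adjusted p 0.905) and PHLDA1 (0.07, adjusted p 0.907) did not pass. The TRIB1 call was lost in 9 of 12 fits that left out 1 library (adjusted p up to 0.119), and the IER5L call without sgControl SCF replicate 1 (0.0803) or sgEGR1 PBS replicate 1 (0.108). IER2 became called without sgControl SCF replicate 2 (0.0415) or sgEGR1 SCF replicate 1 (0.0414).

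**Figure D4:**
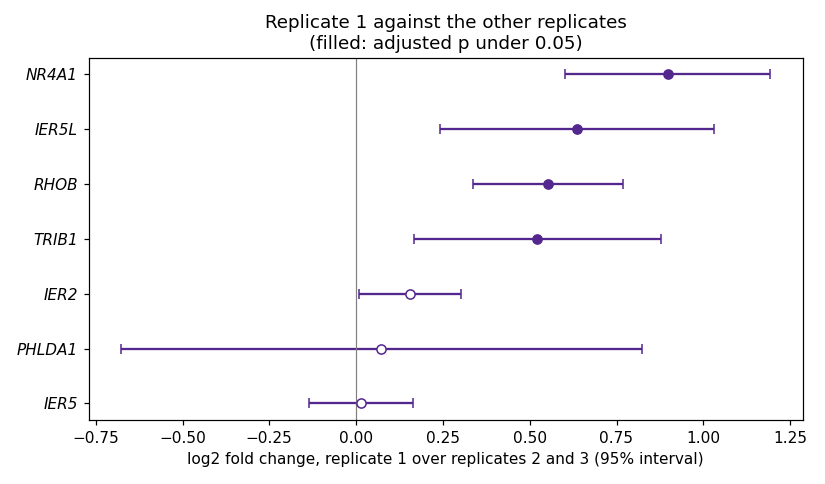
Log2 fold change of replicate 1 over replicates 2 and 3 with group held fixed, with its 95% interval (edgeR), for the 7 genes, filled where the adjusted p was under 0.05. NR4A1 (0.90), IER5L (0.64), RHOB (0.55) and TRIB1 (0.52) are filled, and IER2, PHLDA1 and IER5 are open.

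IER2, RHOB and NR4A1 were higher after SCF in replicate 1 as well as in the others. In sgEGR1 the ratio was smallest in replicate 1 for each of the 3, and in sgControl it was smallest there for RHOB but in replicate 3 for IER2 and NR4A1. These ratios divide SCF and PBS libraries of the same number, which were not shown to be pairs. The ratio of SCF to PBS for RHOB was 2.02 in replicate 1, 2.96 in replicate 2 and 2.66 in replicate 3 of sgControl, and 2.13, 3.54 and 3.46 in sgEGR1. For IER2 it was 2.31, 2.51 and 2.1 in sgControl and 2.23, 3.23 and 2.92 in sgEGR1. For NR4A1 it was 2.64, 4.19 and 2.25 in sgControl and 2.96, 4.95 and 3.58 in sgEGR1. In replicates 2 and 3 alone the ratio of means was 2.81 for RHOB, 2.31 for IER2 and 3.03 for NR4A1 in sgControl, and 3.5, 3.07 and 4.25 in sgEGR1. What set replicate 1 apart is not given by the labels and was not tested.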

How the data were processed

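RNA-seq libraries of HUDEP-2 cells (4 groups of 3) were aligned by the authors with HISAT to hg38 and counted per gene with StringTie, per the study's methods; the submitters' processing notes name bcl2fastq, HISAT2 and SAMtools. The deposited values are StringTie's estimated counts per gene, not normalized; 0 of them were not whole, so rounding changed none. Different library kits are named by the labels and by the methods, and whether counting used strand was not given in the sources used here. Antisense genes overlap exons of IER2, IER3, IER5L, PHLDA1 and NR4A1, and those listed in the table were at 0. The count table's code SG2 was taken as sgEGR1, the only other construct in the labels. The methods call the replicates biological, while the labels give only numbers.

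Genes were kept by filterByExpr (minimum count 10) and tested with edgeR 4.0.16 (R 4.3.3), using TMM scaling, 1 coefficient per group over all 12 libraries, the quasi-likelihood F test and Benjamini-Hochberg adjustment with a threshold of 0.05. Log2 CPM used a prior count of 2. Alternatives were DESeq2 1.42.0 (the study's tool), median of ratios size factors, no filter, a replicate block and a batch term for replicate 1. Further ones were replicates 2 and 3 only, only the groups compared, and the batch term without sgEGR1 SCF replicate 3. Each library was also left out in turn from the fit of all groups. Deviations of same-numbered libraries from their group means correlated at 0.232, 0.103 and 0.119 (PBS) and 0.269, 0.102 and 0.126 (SCF) between guides. Between treatments they correlated at 0.00766 to 0.272. Libraries of different numbers were not compared, and replicate 1 stood apart in every group, so these correlations cannot show pairing. On simulated data with 200 genes above 1 CPM changed by 2-fold, edgeR recovered 82.5% in the sgControl SCF comparison, with 15 false calls. In the interaction it recovered 67.5%, with 6 false calls. The simulated libraries held no offset of replicate 1, and PHLDA1 lay below 1 CPM, so these shares are not the power for the 7 genes. No 2 libraries of a group agreed within sampling noise. Gene positions and exon lengths are from GENCODE v44 on GRCh38, of which hg38 is the same assembly. The genes, relatives, lists and the split of replicate 1 were chosen with earlier results of these data known, and the pairs of relatives were chosen after seeing the data. Named beside them were EGR1, 8 relatives, the 3 highest and 3 lowest of the early response list, and the 2 genes most alike in pattern to each called gene; CSNK2B, ABCF1 and TUBB were named after their values were seen.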

Additional observations from a re-analysis of the deposited data

How the results depend on the processing

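IER2 kept its call in both guides under all alternatives, and IER2, RHOB and NR4A1 kept theirs averaged over guides. With 1 library left out, 1 to 3 of the 7 genes were called in sgControl and in sgEGR1 (2 and 3 with all libraries) and 2 to 5 in replicate 1 (4 with all). No guide comparison or interaction called any of the 7 under any alternative. Over all genes, calls in sgControl (448) became 1289 with the batch term, 1184 with the replicate block, 759 with DESeq2, 192 with only the groups compared, 1186 with the batch term without sgEGR1 SCF replicate 3, and 194 to 448 with 1 library left out. In sgEGR1 (402) they became 1326, 1235, 773, 250, 778 and 176 to 428, and 690 in replicates 2 and 3. Averaged over guides (1399) they became 2868 with the batch term, 2799 with the replicate block and 2442 with the batch term without sgEGR1 SCF replicate 3. After PBS the guides differed in 0 genes, which became 4 with the batch term, 20 with DESeq2, 1 with no filter, 2 with the replicate block, 3 in replicates 2 and 3, 51 with the batch term without sgEGR1 SCF replicate 3, and 0 to 1 with 1 library left out. After SCF 0 became 2, 5 (DESeq2), 2 (replicate block), 2 (replicates 2 and 3), 38 and 0 to 2. The interaction went from 0 to 4 with DESeq2, 2 in replicates 2 and 3, 2 with the batch term without sgEGR1 SCF replicate 3, and 0 to 2 with 1 library left out.

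No call changed direction. Differences short of the threshold that changed sign were, in replicates 2 and 3 alone, IER5 (0.028) and PHLDA1 (-0.069) with SCF in sgEGR1 and TRIB1 between guides after SCF (-0.0022). Between guides after SCF, IER5 was -0.0034 with no filter and -0.045 with the batch term without sgEGR1 SCF replicate 3, and IER5L was -0.086 in the latter. With 1 library left out the ranges that crossed 0 were, with SCF in sgEGR1, IER5 -0.16 to 0.010 and IER5L -0.59 to 0.022; averaged over guides, PHLDA1 -0.19 to 0.11; between guides after PBS, IER5L -0.51 to 0.097, NR4A1 -0.58 to 0.35 and RHOB -0.47 to 0.24; after SCF, IER5 -0.081 to 0.089, IER5L -0.20 to 0.37 and TRIB1 -0.10 to 0.33. In the interaction they were IER5L -0.10 to 0.58, NR4A1 -0.11 to 0.82, RHOB -0.081 to 0.63 and TRIB1 -0.38 to 0.13, and for replicate 1 they were IER5 -0.067 to 0.061 and PHLDA1 -0.16 to 0.20. The cause of these shifts was not tested. Same-numbered libraries were not shown to be pairs, between treatments or between guides. The replicate block made the SCF change of NR4A1 in sgControl pass (1.51), and between guides it changed no call of the 7. DESeq2 gave no adjusted p for PHLDA1 with SCF. PHLDA1 had 7 to 16 counts per library, the fewest of the 7 genes, and no alternative varied depth.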
